A study of Mus musculus with 4 samples.

Results

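The MHC class II genes measured here were H2-Ab1, H2-Aa, H2-Eb1, H2-DMa and Cd74, and they were read from all probe sets that the platform annotation gives to 1 of these genes alone. There were 6 such probe sets for the 5 genes, 2 of them for H2-DMa, out of 10833 probe sets with 1 gene and 8251 genes on the array. RNA was measured on 4 Affymetrix arrays from double-positive thymocytes, the CD4+CD8+ stage of T cell development, sorted with microbeads from female C3H/HeN mice aged 4 weeks. The dexamethasone group was cultured for 3 h with the synthetic glucocorticoid at 1e-07 M in PBS, and the medium group for 3 h in medium holding 0.1% PBS. There were 2 arrays in each group, which the series design calls technical replicate extracts, so p-values measure the spread between extracts and not between mice.

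Class II molecules present peptides to CD4+ T cells. Their alpha and beta chains are assembled in the endoplasmic reticulum with the invariant chain, encoded by Cd74, which blocks the groove and directs the complex to endosomes. There the remaining invariant chain fragment is exchanged for a peptide with the help of H2-DM, a heterodimer of an alpha chain (H2-DMa) and a beta chain (H2-DMb1 or H2-DMb2). H2-Aa and H2-Ab1 encode the alpha and beta chains of the I-A molecule, and H2-Eb1 the beta chain of I-E. In the thymus, epithelial cells and dendritic cells display class II to developing T cells, and B cells and macrophages carry it as well. The transactivator Ciita switches the genes on through a shared upstream module, in which the RFX complex binds the X box and NF-Y the Y box.

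That module can be read in the reference sequence. Of the 5 genes, no RefSeq promoter window (GRCm38.p6, from 250 bases before to 50 after a start) was found for H2-Ab1. The promoter of Cd74 was not examined. Windows were read for the other 3 genes, H2-Aa, H2-Eb1 and H2-DMa. The stretch from -140 to -21 relative to the start is shown for them and, for comparison, for H2-DMb1 and H2-Oa, which encode other class II chains with a measurable signal. Capitals mark the searched letters, TGATTGG for the Y box and, for the X box, GNAAC followed directly by NNATG.
H2-Aa, chr17:34287844-34287963, minus strand: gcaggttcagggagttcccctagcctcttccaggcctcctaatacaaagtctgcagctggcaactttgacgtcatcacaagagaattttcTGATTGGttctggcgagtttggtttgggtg
H2-Eb1, chr17:34305727-34305846, plus strand: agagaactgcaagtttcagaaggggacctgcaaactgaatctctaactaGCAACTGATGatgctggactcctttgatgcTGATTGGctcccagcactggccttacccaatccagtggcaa
H2-DMa, chr17:34122692-34122811, plus strand: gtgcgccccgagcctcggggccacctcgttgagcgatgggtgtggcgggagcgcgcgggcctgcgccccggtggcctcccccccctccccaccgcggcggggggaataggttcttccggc
H2-DMb1, chr17:34153051-34153170, plus strand: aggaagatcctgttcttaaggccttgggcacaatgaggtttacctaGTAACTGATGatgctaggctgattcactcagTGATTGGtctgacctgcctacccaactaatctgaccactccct
H2-Oa, chr17:34092239-34092358, plus strand: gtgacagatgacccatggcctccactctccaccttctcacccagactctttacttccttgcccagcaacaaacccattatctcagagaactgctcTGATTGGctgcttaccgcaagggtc

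The Y box letters were found in the windows of H2-Aa (from -50 to -44), H2-Eb1 (from -61 to -55), H2-DMb1 (from -63 to -57) and H2-Oa (from -45 to -39). H2-Eb1 and H2-DMb1 also held the X box letters, 20 and 21 bases before the Y box. H2-Aa and H2-Oa held GCAAC upstream of the Y box, which fits the opening of the searched X box letters, but not the full letters. The search therefore does not show that a gene without a match lacks an X box. H2-DMa has 2 RefSeq windows, of which the first is shown, and neither held either motif. Which start of H2-DMa these cells use was not tested, so this does not show that the gene lacks the module. Both strands were searched, the motifs did not overlap each other, and the letters were chosen after these sequences had been seen. Of 32851 promoter windows, 7.82% held the Y box letters, 2.51% the X box letters and 0.253% both. The glucocorticoid response element, searched as AGAACA, NNN and TGTTCT in 1 run, was found in 3 of all windows, and the half-site AGAACA alone in 18.97%. Neither was present in the windows of H2-Aa, H2-Eb1, H2-DMa or H2-Oa, and the window of H2-DMb1 held 1 half-site. Among class II genes searched but not shown, the window of H2-DMb2 held 1 half-site and that of H2-Ob held 2. The reference is C57BL/6J, so the sequences of C3H/HeN mice may differ, and a match is a description of letters, not of binding.

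The values are MAS5 signals, which summarise the probes of a probe set on a linear scale. The 19 control probe sets for bacterial and yeast transcripts that are not among the hybridization controls reached at most 14, and this was taken as the background. Between 55.6% and 57.1% of all probe sets lay above it. Brightness depends on the probes, so the levels of different genes are not ranked against each other. The sorted cells carried the markers of their label: Cd4, Cd8a, Cd8b1 and Rag1 averaged 446, 2465, 1637 and 2638 with dexamethasone, against 465, 2457, 2065 and 2114 in medium. The treatment was visible in Fkbp5, a co-chaperone of the glucocorticoid receptor, with 2382 and 2152 on the dexamethasone arrays, against 660.0 and 589.9 on the medium arrays. The 3′ to 5′ ratio of the actin control, a sign of RNA integrity, was 1.24 to 1.40 with dexamethasone and 1.06 to 1.16 in medium. The 9 hybridization controls, transcripts added to the sample, were 1.37-fold brighter with dexamethasone, and scaling to them put the median difference over all genes at -0.46 (log2). That scaling lowers every difference together, so a rise smaller than this turns into a fall under it. The part of either measure in the results below was not tested.

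RNA for class II genes was measurable in the sorted cells, group means were lower with dexamethasone for each of the 5 genes, and only H2-Ab1 passed the test. At the deposited scaling 1 of the 5 genes fell and 0 rose, where 2.53% of the 4950 tested genes fell, 2.34% rose and 4.87% changed in either direction (limma, Benjamini-Hochberg adjusted p under 0.05 over all genes tested). All 5 had a difference below 0, as had 51.4% of all genes. For 4 of the 5 every dexamethasone array lay below every medium array, as for 27.4% of all genes (52.2% were apart in either direction). At an unadjusted p under 0.05, 4 of the 5 were lower, as were 11.9% of all genes, with 21.7% past it in either direction. The median log2 difference of the 5 genes was -0.41, beside -0.01 over all genes. These shares describe a set chosen with earlier results of these data known, and no test was made of the set. In sorted cells measured in bulk, fewer class II-bearing cells and less class II RNA per cell cannot be told apart.

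**Figure D1:**
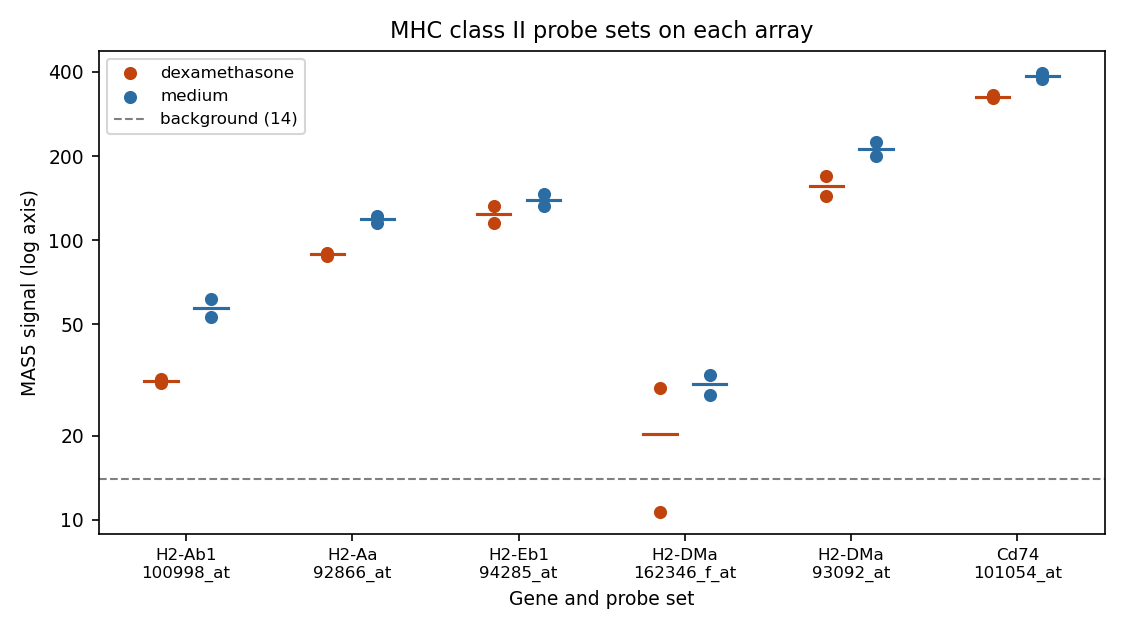
Signal of each class II probe set on each array, with dexamethasone (left) and medium (right) for each probe set; points are arrays, bars are group means, and the dashed line is the background of 14. The points of the groups are apart for H2-Ab1, H2-Aa, Cd74 and the brighter H2-DMa probe set, and they overlap for H2-Eb1 and the dimmer H2-DMa probe set.

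H2-Ab1, the beta chain of I-A, had signals of 30.9 and 32 on the dexamethasone arrays, against 61.5 and 53.0 on the medium arrays. Both dexamethasone arrays lay well under both medium arrays and still above the background. The log2(signal + 1) difference was -0.84 ± 0.16 (SE), a fold of 0.558 with dexamethasone over medium (95% interval of the log2 difference -1.22 to -0.47, limma adjusted p = 0.0371). Only 0.626% of tested genes had a lower difference. The call rested on all 4 arrays: without any one of them the log2 difference was -0.95 to -0.73 and the adjusted p 0.0965 to 0.236. It was also lost without the filter on dim genes (adjusted p = 0.0857) and without the variance trend (adjusted p = 0.0521), the range over all 14 alternatives being 1.82e-06 to 0.236.

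H2-Aa, the alpha chain that pairs with H2-Ab1, had 87.8 and 90.3 with dexamethasone, against 122.0 and 115.6 in medium. The groups did not overlap, and replicates within a group differed by at most 1.06-fold. The log2 difference of -0.41 ± 0.10 did not pass the threshold (95% interval -0.65 to -0.17, limma adjusted p = 0.0759). H2-Eb1, the beta chain of I-E, had 115.0 and 132.5 with dexamethasone, against 132.4 and 146.9 in medium. Its groups overlapped, with the higher dexamethasone array level with the lower medium array. The log2 difference was -0.17 ± 0.11, with a 95% interval of -0.45 to 0.10 that takes in 0 (limma adjusted p = 0.431). The value depended on single arrays, being -0.07 without dexamethasone replicate 1, -0.28 without dexamethasone replicate 2 and -0.10 without medium replicate 2. The alpha chain of I-E, H2-Ea, was at background on every array, with 5.0 and 1.6 with dexamethasone and 5.9 and 3.7 in medium. RefSeq lists H2-Ea as a transcribed pseudogene in the C57BL/6J reference, and nothing was tested here on its state in C3H/HeN mice.

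H2-DMa, the alpha chain of the peptide exchange factor, had 143.8 and 169.7 on its brighter probe set with dexamethasone, against 224.1 and 199.8 in medium. The groups did not overlap, and the log2 difference was -0.44 ± 0.11 (95% interval -0.71 to -0.16, limma adjusted p = 0.0855). The dimmer H2-DMa probe set, whose suffix marks probes shared within a sequence family, had 10.7 and 29.7 with dexamethasone, against 33.1 and 28 in medium. One dexamethasone array was below background there while the other lay inside the range of the medium arrays, so this probe set resolves no difference (-0.73 ± 0.43). With the mean of both probe sets H2-DMa was at -0.58, also short of the threshold. Over probe sets in place of genes, 4 of the 6 class II probe sets were lower without overlap, as were 27.7% of all probe sets tested.

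Cd74, the invariant chain, had 329.9 and 322.1 with dexamethasone, against 378.7 and 397.7 in medium. The replicates lay within 1.05-fold of each other and the groups were apart. The log2 difference was small, at -0.25 ± 0.07 (95% interval -0.42 to -0.08), and did not pass (limma adjusted p = 0.101). Cd74 lies on chromosome 18, away from the other 4 genes, which share the class II region of chromosome 17.

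**Figure D2:**
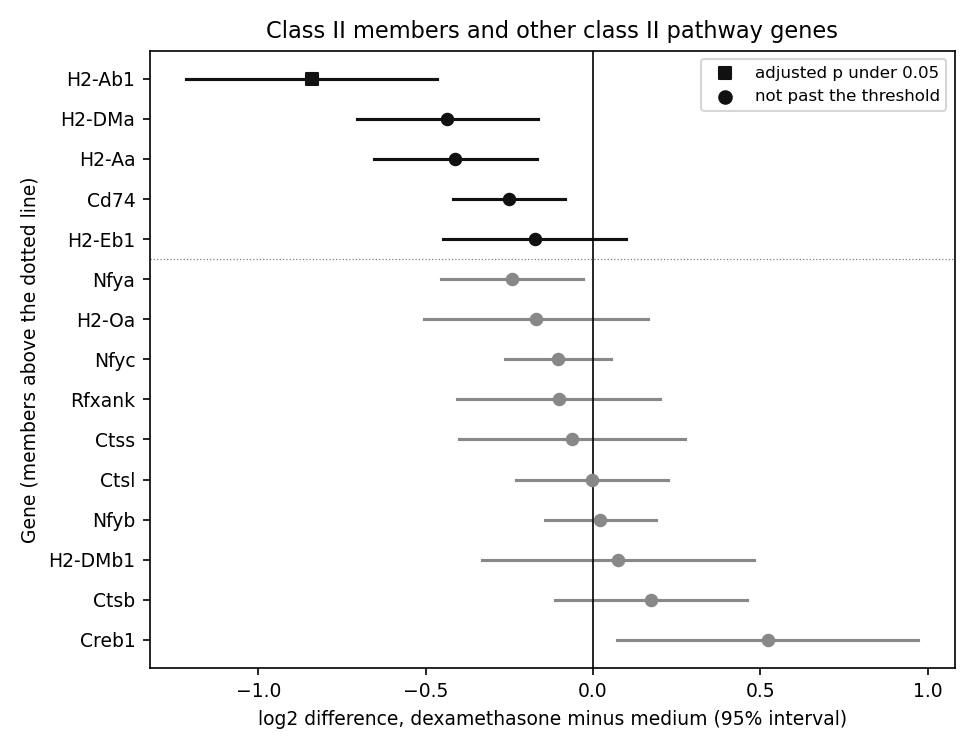
Log2 difference, dexamethasone minus medium, of the 5 class II genes (black, above the dotted line) and of the 10 tested genes of the wider class II pathway (grey), with 95% intervals; squares passed the adjusted p threshold of 0.05 and circles did not. All 5 class II genes lie left of 0 and only H2-Ab1 is a square, while the pathway genes spread from -0.24 to 0.52.

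Ordered by the log2 difference, the genes ran from H2-Ab1 (-0.84) through H2-DMa (-0.44), H2-Aa (-0.41) and Cd74 (-0.25) to H2-Eb1 (-0.17). The 95% intervals of all neighbours in this order overlapped, and that of H2-Ab1 left out the estimates of the other 4 genes. The size for H2-Ab1 moved with the pseudocount: with a pseudocount of 16 its difference was -0.62 and with 32 it was -0.49, past the threshold in both (2.59% of genes fell with either). Relative to the median of all genes the difference of H2-Ab1 was -0.83 at the deposited scaling and -0.86 after quantile normalization. Scaling by array medians or by the hybridization controls shifts all genes of an array alike and so cannot move this relative value. H2-Ab1 alone passed with array medians (2.38% of genes fell), quantile normalization (2.42%) and the replicate number as a block (3.96%). None of the 5 passed with no filter on dim genes (0.642% fell) or no variance trend (0.566%), nor any of the 4 tested at the 60th percentile filter (4.67%), in limma, where 4 of the 5 had an unadjusted p under 0.05 in the reported fit. With the hybridization controls all 5 genes passed as lower, where 50.7% of all genes fell and 0.747% rose.

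**Figure D3:**
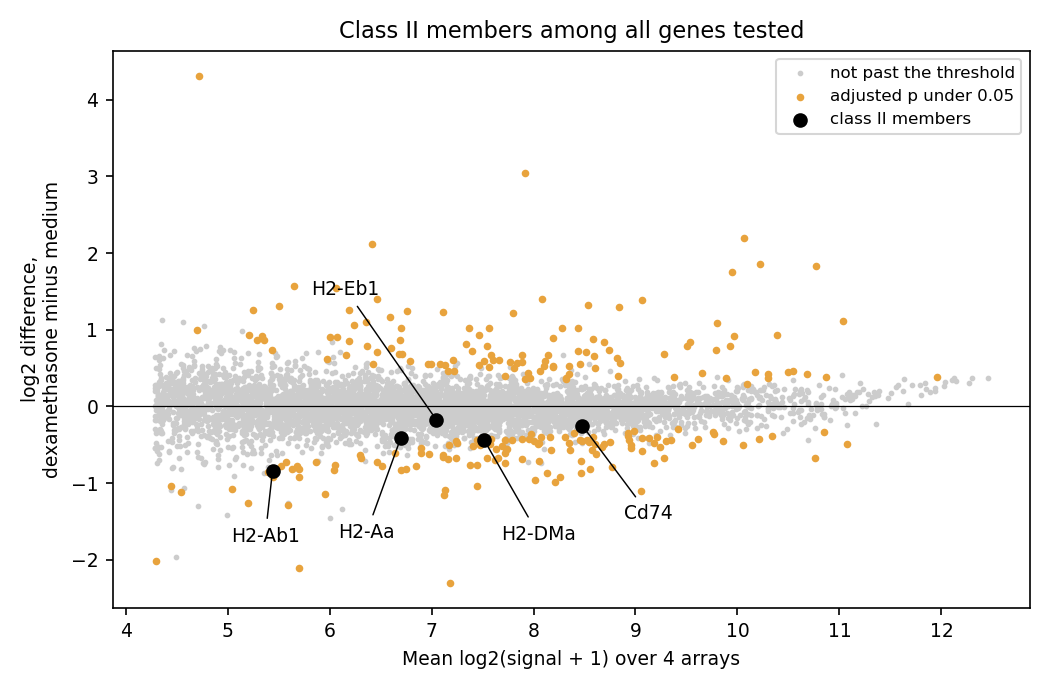
Log2 difference, dexamethasone minus medium, against mean log2(signal + 1) over 4 arrays for the 4950 genes tested; grey genes did not pass, orange genes had an adjusted p under 0.05, and the 5 class II genes are black. H2-Ab1 sits at the lower edge of the cloud at low signal, and the other 4 lie inside it below 0.

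The other genes of the pathway were read beside them. Of 23 other listed class II genes, regulators and processing enzymes, 18 were measured and 10 were bright enough to test, and 0 rose and 0 fell in limma, with 2 at an unadjusted p under 0.05. Of all genes 4.87% and 21.7% passed these thresholds, so the counts for 10 genes are near the background. Their median log2 difference was -0.03, beside -0.01 over all genes. The 2 genes were Nfya, a subunit of the Y box factor NF-Y, at -0.24 ± 0.09, and Creb1 at 0.52 ± 0.19. The other NF-Y subunits, Nfyb and Nfyc, were at 0.02 ± 0.07 and -0.10 ± 0.07. The partner of H2-DMa, H2-DMb1, had 53.5 and 51.8 with dexamethasone, against 56.9 and 43.8 in medium, with a log2 difference of 0.07 ± 0.17. H2-Oa, the alpha chain of the H2-DM inhibitor H2-O, had 96.4 and 108.5 with dexamethasone, against 128.8 and 103.0 in medium (-0.17 ± 0.14). Its partner H2-Ob had 9.0 and 1.8 with dexamethasone, against 14.5 and 15.1 in medium, so the dexamethasone arrays were at background and the medium arrays just above it. H2-DMb2 had 29.6 and 16.6 with dexamethasone, against 3.2 and 9.8 in medium, the opposite order, with the medium arrays at background. H2-Eb2 was at background throughout. H2-Ob, H2-DMb2 and H2-Eb2 were too dim to be tested.

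The transactivator Ciita, the master regulator of class II transcription, sat at the edge of background with 11.2 and 17.8 with dexamethasone, against 15.7 and 15.9 in medium, and was not tested. Rfxank, a subunit of the X box factor RFX, averaged 91.9 with dexamethasone and 98.6 in medium (-0.10 ± 0.13). Rfx5 and Rfxap, the other RFX subunits, were not analysed here. Neither protease that degrades the invariant chain passed. Ctss, used by dendritic cells, macrophages and B cells, averaged 44.7 with dexamethasone and 46.7 in medium (-0.06 ± 0.14). Ctsl, used by cortical epithelium, averaged 1766 with dexamethasone and 1767 in medium (-0.00 ± 0.09). Ifi30, a lysosomal thiol reductase that unfolds antigens, had 14.1 and 12.4 with dexamethasone, against 10.6 and 22.6 in medium, around background.

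On chromosome 17 the class II genes are interleaved with genes of class I peptide supply, in the RefSeq order H2-Oa, Brd2, H2-DMa, H2-DMb2, H2-DMb1, Psmb9, Tap1, Psmb8, Tap2, H2-Ob, H2-Ab1, H2-Aa, H2-Eb1, H2-Eb2 and H2-Ea among the 15 with a probe set of their own. This row of neighbours was looked up after the values were seen. Of the 11 tested, 4 were lower without overlap, namely H2-DMa, Tap1, H2-Ab1 and H2-Aa, and 1 was higher, as were 27.4% and 24.8% of all genes. Tap2, a subunit of the peptide transporter, had 745.3 and 772.7 with dexamethasone, against 607.5 and 561.1 in medium. It rose at the deposited scaling (log2 difference 0.38 ± 0.07, limma adjusted p = 0.0368), by less than the shift of all genes under the hybridization controls, where its difference is below 0. No gene of the class I list, Tap2 included, passed without the variance trend. Psmb8 and Psmb9, immunoproteasome subunits between them, were at 0.03 ± 0.06 and 0.09 ± 0.08. At the deposited scaling H2-Ab1 was the neighbour that fell and Tap2 the one that rose.

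Class II RNA in a sort of double-positive cells raises the question of which other cells the sort held, and the defining markers of the class II-bearing types were read beside it. Of 4 defining markers of thymic epithelial cells (Foxn1, Epcam, Krt5 and Krt8), all 4 were at background, at most 7.8 on any array. Of 4 for macrophages, Adgre1 and C1qa were at background on every array, at most 12.3, Csf1r was at 12.1 and 15.4 with dexamethasone, against 7.2 and 16 in medium, and Cd68 was at 21.5 and 20.5 with dexamethasone, against 17.6 and 19.3 in medium. Of 4 for dendritic cells, Zbtb46 was at background, and Itgax at 13.6 and 15.2 with dexamethasone, against 17.9 and 17.7 in medium. Xcr1 averaged 20.8 with dexamethasone and 25.8 in medium. Flt3 averaged 54.0 with dexamethasone and 58.2 in medium on its brightest probe set. Another Flt3 probe set went the other way, with 52.7 and 50.3 with dexamethasone, against 49.3 and 45.6 in medium. Of the B cell markers, Cd79a was at 19.2 and 15.9 with dexamethasone, against 18.8 and 17.5 in medium, and Ms4a1 averaged 24.1 with dexamethasone and 18.0 in medium. Cd79b had 96.5 and 91.7 with dexamethasone, against 85.5 and 89.2 in medium. No defining marker of these types that was tested passed, and differences were below 0 for 1 of the 6 tested genes of the B cell list, 4 of 7 of the dendritic cell list and 3 of 4 of the macrophage and monocyte list, beside 51.4% of all genes.

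**Figure D4:**
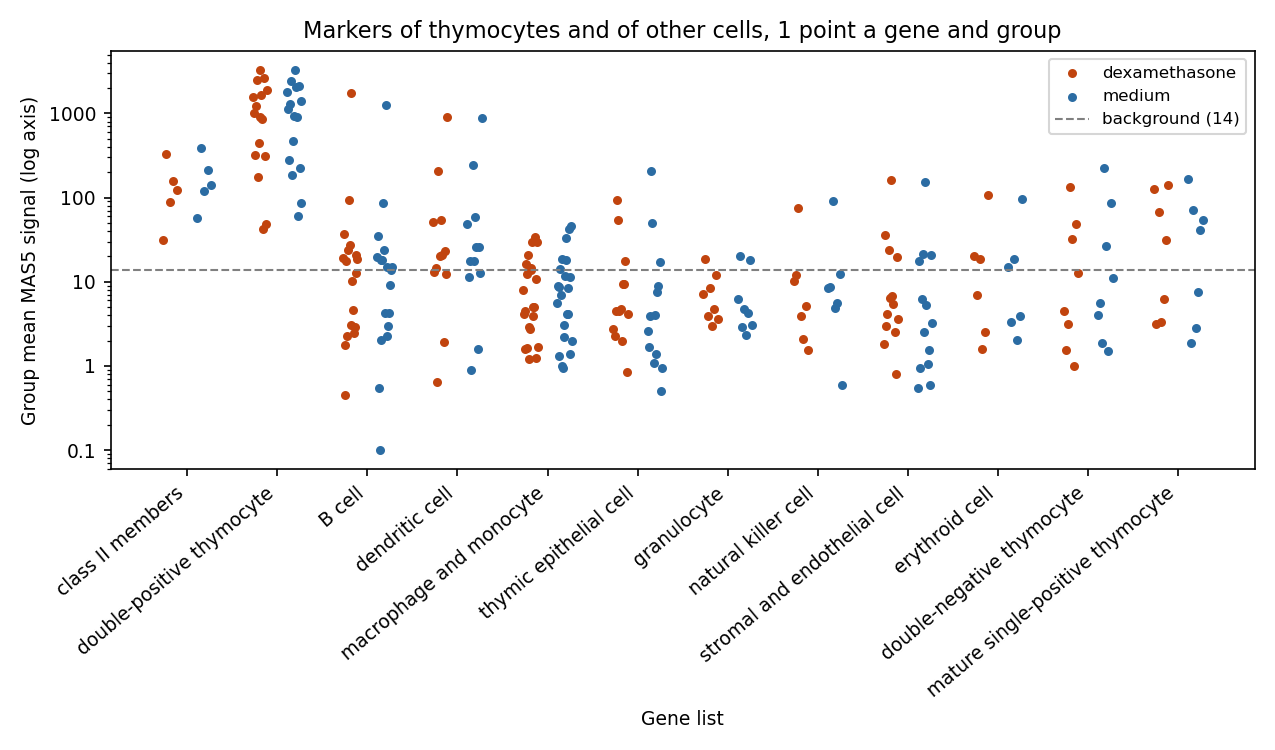
Group mean MAS5 signal of every measured gene of the class II set and of 11 marker lists, with dexamethasone (left) and medium (right) in each list; each point is a gene and the dashed line is the background of 14. All double-positive markers lie above the line, most macrophage, epithelial and granulocyte markers lie below it, and the class II genes lie above it in both groups.

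Over whole lists, 7 of 18 measured B cell markers were above background on all arrays, and their summed signal was 2039 to 2060 with dexamethasone and 1511 to 1573 in medium. Most of that was Ighm, the immunoglobulin mu chain, which rose (0.46 ± 0.06, limma adjusted p = 0.0119). Its probe sets disagreed: of the other 3 above background on all arrays, 1 was higher (0.55) and 2 were lower (-0.41 and -0.37), each without overlap. No B cell gene passed with probe sets averaged within a gene, without the variance trend, or without dexamethasone replicate 1, medium replicate 1 or medium replicate 2. Without Ighm the B cell sum was 290.4 to 308.3 with dexamethasone and 253.3 to 290.5 in medium. For dendritic cells, 7 of 12 were above background, 0 of 7 tested passed in limma (0 at an unadjusted p under 0.05), and the sums were 1275 to 1370 with dexamethasone and 1319 to 1368 in medium. Without Cst3, the brightest gene of the list, they were 403.3 to 434.4 with dexamethasone and 423.0 to 501.8 in medium. Cst3 and Fscn1, the brightest of that list, were at 0.04 ± 0.07 and -0.22 ± 0.11. For macrophages and monocytes, 4 of 22 were above background, and the sums were 218.8 to 234.4 with dexamethasone and 244.0 to 266.3 in medium, with most of its genes near background. Cd68, the defining marker above background on all arrays, was higher with dexamethasone without overlap. Mpeg1, a pore-forming protein of phagocytes, had 30.2 and 29.9 with dexamethasone, against 42.3 and 50.6 in medium (-0.61 ± 0.17, limma adjusted p = 0.102), and Cd14 was at -0.37 ± 0.28. For thymic epithelium, 3 of 13 were above background, and Cldn4 fell (-1.15 ± 0.10, limma adjusted p = 0.00288). The other genes of that list above background, Ly75 (0.12 ± 0.23) and Aire (17.6 on average with dexamethasone, 17.15 in medium), overlapped between groups. The remaining 10 of the 13 were at background on every array. The epithelial sums were 203.2 to 213.6 with dexamethasone and 294.0 to 319.4 in medium, a gap that rested on Cldn4. Without Cldn4 they were 105.4 to 126.2 with dexamethasone and 91.1 to 109.2 in medium. The part of any of these cells in the class II result was not tested. Under the hybridization controls no gene of the B cell list passed as higher.

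Cells without a known class II role in the thymus were read the same way. Of 8 granulocyte markers 1 was above background on all arrays, Elane (-0.11 ± 0.20), and Camp was at 14.5 and 9.6 with dexamethasone, against 19.7 and 16.9 in medium. Of 7 natural killer markers 1 was, Gzma (-0.27 ± 0.13), and Gzmb was at background. Of 13 stromal and endothelial markers 3 were, and the collagen gene Col1a1 rose from that list (0.997 ± 0.19, limma adjusted p = 0.0397) while Col1a2 was at 0.09 ± 0.13. No stromal gene passed in 9 of 15 alternatives, among them quantile normalization, the hybridization controls, probe sets averaged within a gene, both changes of the dim filter and the removal of any 1 array. Of 6 erythroid markers 2 were, Hba-a1 (0.15 ± 0.11) and Hbb-b2 (0.01 ± 0.21). Among thymocyte stages, Ptcra (-0.84 ± 0.12) and Gfi1 (-0.76 ± 0.09) of the double-negative list fell, with 0 passing without dexamethasone replicate 1, medium replicate 1 or medium replicate 2. Il7r of the mature single-positive list, which is also in the list of glucocorticoid receptor targets, rose (1.40 ± 0.12). The other 3 tested genes of the single-positive list were below 0 and did not pass, with Itgb7 at -0.39 ± 0.09. Of the double-positive list, all 16 measured markers were above background, and 2 rose (Cd2 and Satb1) and 2 fell (Cd8b1 and Ptcra) of 16 tested, where 2.34% of all genes rose and 2.53% fell. The calls were 1 with no filter on dim genes or no variance trend, and 0 without dexamethasone replicate 1, medium replicate 1 or medium replicate 2. Under the hybridization controls none of the 16 passed as higher. Its summed signal was 18331 to 19378 with dexamethasone and 18446 to 18809 in medium.

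Genes with a like profile over the arrays were looked up next. Averaged over the 5 genes and centred on the mean of the 4 arrays, log2 values were -0.26 and -0.16 with dexamethasone, against 0.23 and 0.19 in medium. The 5 nearest of 4891 other tested genes above background, by root mean square difference over the 4 arrays, were Hdac1, a histone deacetylase (0.0190), Mrps28, a mitochondrial ribosomal protein (0.0223), Kcnab2, a potassium channel subunit (0.0228), Rex1bd (0.0242) and Ciao2b, which takes part in iron-sulphur cluster assembly (0.0268). H2-Aa itself lay at 0.0241 from the mean, with 3 other genes as near, H2-DMa at 0.0647 with 96, and Cd74 at 0.106 with 366. H2-Eb1 lay at 0.147 with 816 genes as near and H2-Ab1 at 0.218 with 2046. With 4 arrays in 2 groups this likeness rests mostly on the size of the group difference.

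**Figure D5:**
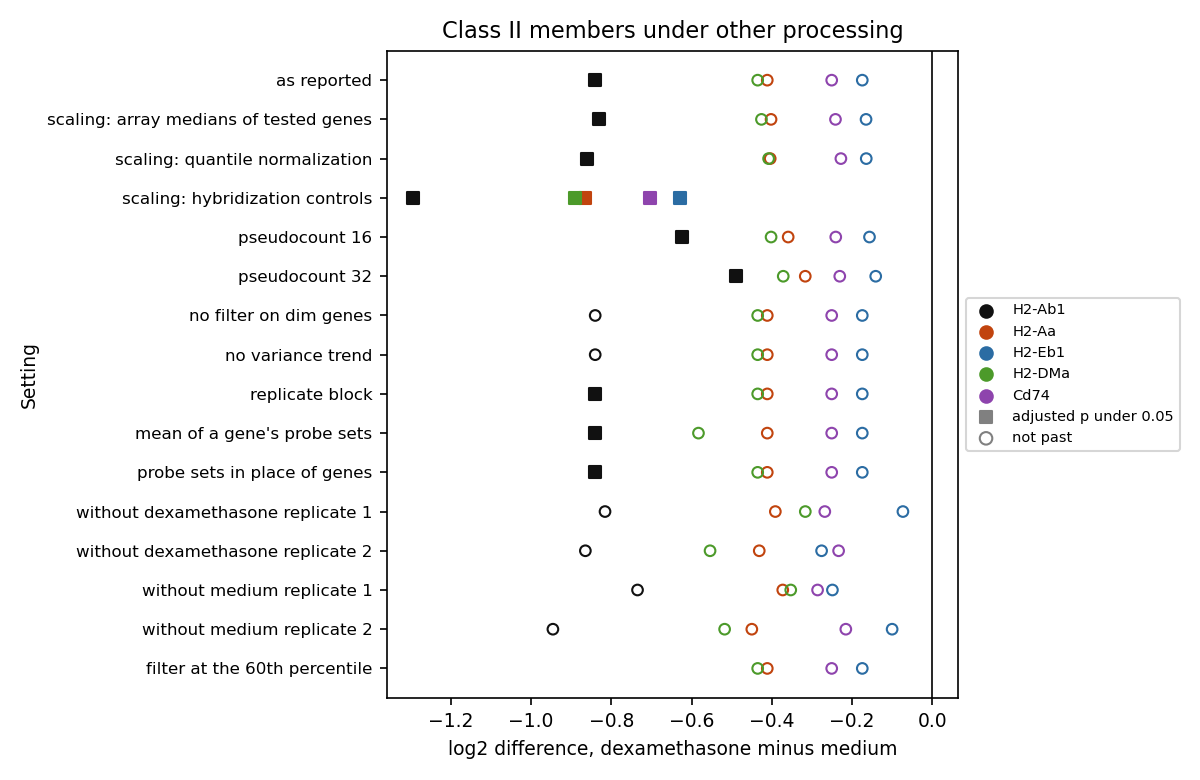
Log2 difference, dexamethasone minus medium, of each class II gene (colours) as reported and under each alternative setting (rows); filled squares passed an adjusted p of 0.05 and open circles did not. Every point lies left of 0, and the squares outside the scaling to hybridization controls all belong to H2-Ab1.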

How the data were processed

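The authors deposited 1 linear intensity per probe set. MAS5 is named in the submitters' processing notes. Its version and settings are not given in the sources used here. The deposited values show a 2% trimmed mean of 100.06 to 100.07 on each array, hence a common scaling. Of 12488 probe sets, 66 were controls, 10833 named 1 gene, 396 several and 1193 none in the platform annotation. The brightest probe set stood for each of 8251 genes. Only genes above the 40th percentile of mean log2(signal + 1) entered the test, 4950 in all. The 1 added before the logarithm shrinks the fold changes of dim genes. For H2-Ab1 this was slight, with a fold of 0.558 where the mean signal with dexamethasone was 54.93% of that in medium. Dexamethasone was compared with medium by lmFit and eBayes with a variance trend in limma 3.58.1 under R 4.3.3. Tests were two-sided, and p-values were adjusted by Benjamini-Hochberg across every gene tested. The fit was tested on simulated data. Rose, fell and passed refer to an adjusted p under 0.05. With 2 arrays in each group, an exact permutation test of 1 gene could not go below 0.333, and the number of arrays limits the precision. A list's summed signal used 1 probe set a gene. The named genes were every class II probe set, the class II chains, Ciita, the RFX subunit Rfxank, Ctss, Ctsl and Ifi30. The NF-Y subunits, Creb1 and Aire were added after their values were seen. Also named were the defining markers and the passing and the 2 brightest markers of each list. Checks of the sort and treatment and the 5 nearest profiles completed them. Members and lists were chosen with earlier results of these data known.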

Additional observations from a re-analysis of the deposited data

How the results depend on the processing

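All 5 class II genes had a log2 difference below 0 under the alternatives that can move it (scaling, pseudocount, leaving out 1 array and, for H2-DMa, averaging its probe sets). The filters, the trend and the block change only the error and the adjustment. H2-Ab1 passed in 8 of 14 alternatives. It was -0.84 but did not pass without a filter on dim genes (adjusted p = 0.0857) or without the variance trend (0.0521), and leaving out 1 array gave -0.95 to -0.73 (adjusted p 0.0965 to 0.236). The filter at the 60th percentile left H2-Ab1 out. The range of its adjusted p over all alternatives was 1.82e-06 to 0.236. The other genes passed only with scaling to the hybridization controls, at -0.87 for H2-Aa, -0.63 for H2-Eb1, -0.89 for H2-DMa and -0.705 for Cd74, a setting that lowers every gene alike. Passing class II genes were then 5, as were 6 of the 10 pathway genes (6 lower), and they were 0 without the dim filter, with the 60th percentile filter, without the trend and without any 1 array. Of all genes, 241 changed (116 higher, 125 lower). The counts were 2548 (37 and 2511) with the hybridization controls, 116 (63 and 53) with no filter on dim genes, 69 (41 and 28) without the trend and 371 (175 and 196) with the replicate number as a block. Leaving out 1 array gave 47 to 103 (31 to 55 higher, 13 to 48 lower). The labels do not say that replicate numbers pair extracts, and deviations of same-numbered arrays correlated at 0.0892 across genes. With the replicate block H2-Ab1 stayed past the threshold (adjusted p = 0.0350) and no call on a class II gene changed. Signals near 14 limit what can be read of Ciita, H2-Ob and H2-DMb2.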

Other observations

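Genes of class I presentation, named here after their values were seen, went both ways. Of 24 listed, 15 were tested, 1 rose (Tap2, at the deposited scaling; 0 with the hybridization controls) and 1 fell in limma, with 6 at an unadjusted p under 0.05 and a median log2 difference of -0.07. Of all genes 2.34% rose, 2.53% fell and 21.7% had an unadjusted p under 0.05, and without the variance trend 0 of the 15 passed. The fall was on the H2-Q1 probe set, with 453.8 and 444.4 with dexamethasone, against 712.5 and 790.5 in medium (-0.74 ± 0.07, limma adjusted p = 0.00505). Its suffix marks probes shared among class I genes, so the gene behind it is uncertain. The brightest H2-K1 and H2-D1 probe sets carry the same suffix and the same limit. H2-K1 was at 0.05 ± 0.08, H2-D1 at -0.19 ± 0.06 and B2m, the light chain of class I, at 0.21 ± 0.07, and none of these passed. Dimmer probe sets differed: H2-K1 had one at -0.37 ± 0.13, lower without overlap. H2-D1 had others at 0.01 and 0.05, with overlap. Of 10 listed glucocorticoid receptor targets, 9 were tested, 5 rose and 0 fell, where 2.34% of all genes rose. With the hybridization controls 4 of the 9 passed as higher.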
